A study of Mus musculus with 8 samples.

Results

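Checkpoint and costimulatory ligands were examined in neutrophils from B16 tumors, a mouse melanoma model. The set was chosen by gene symbol and held 5 of the 18187 genes of the deposited table: Cd274, Pdcd1lg2, Lgals9, Cd80 and Cd86. The study compared 3 libraries labelled aOX40 (replicates 1 to 3) with 5 labelled IgG (replicates 2 to 6). All 8 libraries are labelled neutrophils and B16. The labels state neither the dose, the time, the strain and age of the mice, nor how the cells were isolated, and they do not say whether each library came from 1 animal. What the p-values measure is thus the spread among 8 libraries, some of which may be technical. The labels name the treatment by its target only; OX40 is a costimulatory receptor of the tumor necrosis factor receptor family, best known on activated T cells.

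T cells read antigen together with a second signal from ligands on the presenting cell. CD80 and CD86, the products of Cd80 and Cd86, bind CD28 to promote activation and CTLA-4 to restrain it. PD-L1 and PD-L2, encoded by Cd274 and Pdcd1lg2, bind PD-1 on T cells and dampen their response. Galectin-9, the product of Lgals9, binds carbohydrates and is described as a ligand of TIM-3. Interferons are well-known inducers of PD-L1 and IL-4 of PD-L2, and PD-L1 on tumor neutrophils is studied as a means by which these cells inhibit T cells.

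The libraries held 69.6 to 73.5 M counts in aOX40 and 52.7 to 63.2 M counts in IgG, so depth and group went together. Of the 14 neutrophil markers examined, all were in the table, and they summed to 18460 to 26677 CPM (counts of a gene per M counts of the scaled library) in aOX40 and 17158 to 29409 CPM in IgG. Most of that sum was S100a8 and S100a9. Of the 14, 3 rose in aOX40 (edgeR), the granule genes Mmp8 (1.19 on the log2 scale, adjusted p = 0.0443) and Mmp9 (1.28, adjusted p = 0.0467) and the surface gene Cd177 (1.34, adjusted p = 0.0414). The other 11 were not called; among them Fpr1, a chemotactic receptor gene, did not overlap between the groups (0.86, adjusted p = 0.0770). The messenger RNAs of the mitochondrial genome, which follow RNA quality as well as cell state, made up 0.0998% to 0.152% of counts in aOX40 and 0.0510% to 0.0811% in IgG. Over the whole table, 750 of 13278 genes tested (5.65%) passed an adjusted p of 0.05 in edgeR's quasi-likelihood test, with 351 higher and 399 lower in aOX40. With total counts as the only scaling, 874 genes were higher and 246 lower, which made 78.0% of the calls higher in place of 46.8%. That scaling moved the median change over all genes to 0.35 on the log2 scale, against 0.05 with the trimmed mean of M-values (TMM) factors used for the levels below.

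The PD-L1, PD-L2 and galectin-9 genes were lower in aOX40 neutrophils, and the costimulatory ligand genes Cd80 and Cd86 did not pass the test. Of the 5 genes, Cd274, Pdcd1lg2 and Lgals9 fell, 0 rose, and Cd80 and Cd86 were not called; among all tested genes 3.00% were called lower and 2.64% higher. The 3 that fell were also those whose libraries did not overlap between the groups, which held for 7.75% of all tested genes in the lower direction and 8.22% in the higher. All 5 passed the filter on low counts, and their median log2 fold change was -1.18, beside 0.05 for all genes tested. In bulk libraries, fewer cells that carry a transcript and less of it per cell cannot be told apart.

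**Figure D1:**
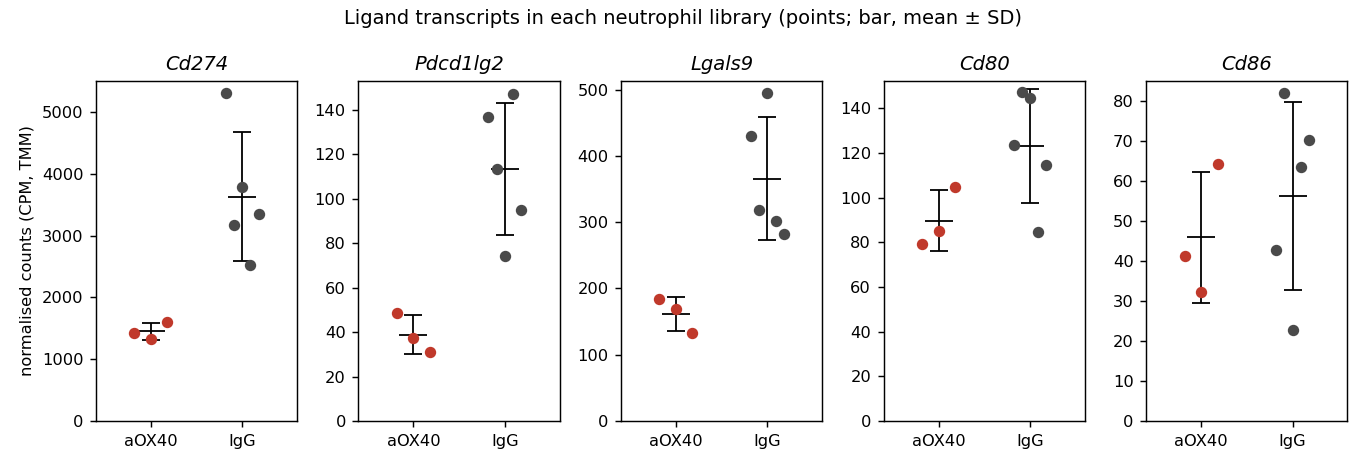
Normalised counts (CPM with TMM factors, linear axes from 0) of the 5 ligand genes in each library, with the mean and SD of each group as a bar. For Cd274, Pdcd1lg2 and Lgals9 all 3 aOX40 points lie under all 5 IgG points, while the groups overlap for Cd80 and Cd86.

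Cd274, the PD-L1 gene, lies on chromosome 19 (29367455 to 29388095, plus strand, GRCm38). It stood at 1429, 1332 and 1604 CPM in aOX40 replicates 1, 2 and 3, against 5307, 3179, 3797, 2522 and 3356 CPM in IgG replicates 2, 3, 4, 5 and 6. The aOX40 libraries lay close together, with the highest 1.20 times the lowest, while the IgG libraries spread over 2.10 times and replicate 2 was the highest. The mean ± SD was 1455 ± 137 CPM over the 3 aOX40 libraries and 3632 ± 1042 CPM over the 5 IgG libraries, and errors of levels are SD over these libraries throughout. The log2 fold change was -1.32 (SE 0.25, 95% interval -1.87 to -0.77, adjusted p = 0.0191, edgeR), which is a level 0.401 times that of IgG with an interval of 0.274 to 0.585. Between 106207 and 258632 counts of each library came from this gene, 0.153% to 0.477% of all counts, so counting error was small beside the spread between libraries. The call was lost without aOX40 replicate 2 (adjusted p = 0.115) or without aOX40 replicate 3 (adjusted p = 0.0657), where the log2 fold change was -1.26 and -1.39. Without aOX40 replicate 2, edgeR called 0 genes of the whole table (2230 at an unadjusted p below 0.05).

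Pdcd1lg2, the PD-L2 gene, begins 22824 bases beyond the end of Cd274 on the same strand (chromosome 19, 29410919 to 29471161). Its levels were 48.4, 37.3 and 30.9 CPM in aOX40 replicates 1 to 3, against 137, 114, 74.4, 147 and 95.1 CPM in IgG replicates 2 to 6. Every aOX40 library lay below every IgG library, and IgG replicate 4 came nearest to aOX40. The means were 38.9 ± 8.85 CPM in aOX40 and 113 ± 29.8 CPM in IgG. The log2 fold change was -1.55 (SE 0.28, 95% interval -2.16 to -0.93, adjusted p = 0.0168, edgeR). It too was not called without aOX40 replicate 2 (adjusted p = 0.114) or aOX40 replicate 3 (adjusted p = 0.0793). The noncoding gene A930007I19Rik overlaps it on the other strand, and whether strand was used in counting is not stated, so reads in the overlap may not be told apart. A930007I19Rik, named for this overlap after its values were seen, stood at 15.5 ± 3.06 CPM in aOX40, against 24.6 ± 6.03 CPM in IgG, and its log2 fold change was -0.67 (SE 0.27, adjusted p = 0.162, edgeR).

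Lgals9, the galectin-9 gene, lies on chromosome 11 (78962974 to 78984946, minus strand). It stood at 184, 168 and 133 CPM in aOX40 replicates 1 to 3, against 431, 319, 495, 302 and 282 CPM in IgG replicates 2 to 6. The highest aOX40 library was still below the lowest IgG library, which was replicate 6. Means were 162 ± 25.9 CPM in aOX40 and 366 ± 92.4 CPM in IgG, with a log2 fold change of -1.18 (SE 0.24, 95% interval -1.71 to -0.64, adjusted p = 0.0248, edgeR). The call was lost without aOX40 replicate 2 (adjusted p = 0.125) or aOX40 replicate 3 (adjusted p = 0.0988).

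Cd80, the B7-1 gene (chromosome 16, 38455561 to 38496335, plus strand), stood at 79.1, 85.2 and 105 CPM in aOX40 replicates 1 to 3, against 124, 147, 145, 84.5 and 115 CPM in IgG replicates 2 to 6. Of the 5 IgG libraries, replicate 5 fell within the aOX40 range and the others lay above it. The means were 89.7 ± 13.5 CPM in aOX40 and 123 ± 25.6 CPM in IgG. The log2 fold change was -0.45 (SE 0.23, adjusted p = 0.250, edgeR), with a 95% interval of -0.96 to 0.05. That interval covers levels from 0.515 to 1.03 times those of IgG, so these libraries neither show a decrease of Cd80 nor put it at the IgG level.

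Cd86, the B7-2 gene (chromosome 16, 36603869 to 36666081, minus strand), was the most variable of the 5. It stood at 41.4, 32.3 and 64.2 CPM in aOX40 replicates 1 to 3, against 42.7, 82.1, 22.8, 63.5 and 70.2 CPM in IgG replicates 2 to 6. Both the lowest and the highest library belonged to IgG, and their levels differed 3.59 times. Means were 46.0 ± 16.4 CPM in aOX40 and 56.3 ± 23.5 CPM in IgG, with a log2 fold change of -0.29 (SE 0.38, 95% interval -1.14 to 0.55, adjusted p = 0.680, edgeR). The interval is wide enough to hold both a clear decrease and an increase. No test was made of whether the changes of Cd80 and Cd86 differed from those of Cd274, Pdcd1lg2 and Lgals9.

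Levels were set beside each other only after division by exon length. Per kilobase of annotated exon, the order of means was Cd274, Lgals9, Cd80, Pdcd1lg2 and Cd86 in aOX40, and Cd274, Lgals9, Pdcd1lg2, Cd80 and Cd86 in IgG. Cd274 averaged 402 ± 38.0 CPM per kb in aOX40 and 1003 ± 288 CPM per kb in IgG, and its libraries overlapped those of no other ligand in the same group. Lgals9 followed at 75.7 ± 12.1 CPM per kb in aOX40 and 171 ± 43.3 CPM per kb in IgG, also clear of its neighbours in that order. In aOX40, Cd80 (24.2 ± 3.64 CPM per kb) and Pdcd1lg2 (19.8 ± 4.51 CPM per kb) overlapped, and Pdcd1lg2 overlapped Cd86 (12.6 ± 4.48 CPM per kb). In IgG, Pdcd1lg2 (57.8 ± 15.2 CPM per kb) overlapped Cd80 (33.2 ± 6.92 CPM per kb), whereas Cd86 averaged 15.4 ± 6.42 CPM per kb and its highest library lay just under the lowest of Cd80.

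Among the 17639 genes with an annotated length, Cd274 ranked 124 to 152 by level per kb in the aOX40 libraries and 52 to 102 in the IgG libraries. The PD-L1 transcript was thus among the abundant ones of both groups. Lgals9 ranked 529 to 655 in aOX40 and 281 to 402 in IgG. Cd86 ranked 1711 to 2635 in aOX40 and 1462 to 3131 in IgG.

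**Figure D2:**
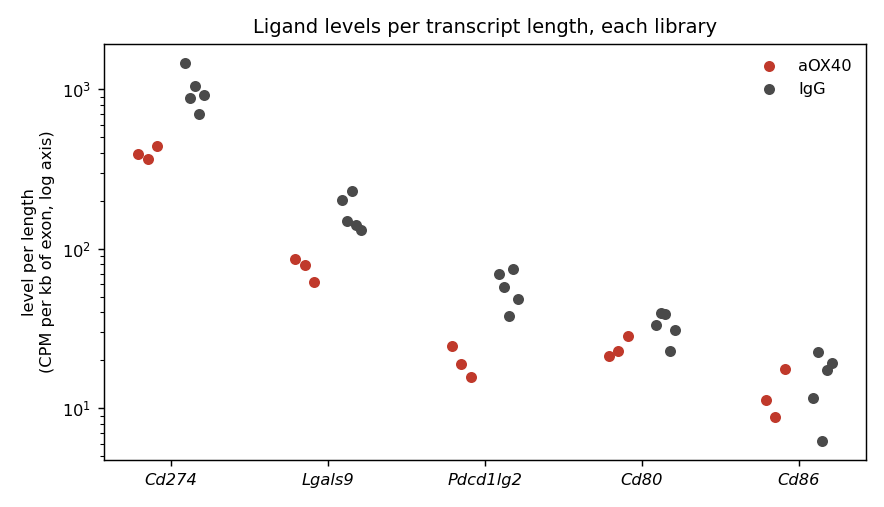
Level per length (CPM per kb of annotated exon, log axis) of the 5 ligand genes in each library, aOX40 in red and IgG in dark grey. Cd274 lies above every other ligand in both groups, at means of 402 in aOX40 and 1003 in IgG.

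The balance between ligands was described by ratios of levels per length within each library, without a test. The ratio of Cd274 to Cd80 was 15.6 to 18.5 in the 3 aOX40 libraries, against 43.9, 22.0, 26.8, 30.5 and 29.9 in IgG replicates 2 to 6. These did not overlap, and the aOX40 ratios were the lower. PD-L1 and CD80 can bind each other on the same cell, which is why this pair is shown. The ratio of Cd274 to Pdcd1lg2 averaged 21.1 ± 6.23 in aOX40 and 18.4 ± 6.83 in IgG, with overlap. The ratio of Pdcd1lg2 to Cd80 was 0.557 to 1.16 in aOX40 and 0.970 to 3.29 in IgG, with an overlap of 1 library on each side. The ratio of Cd80 to Cd86 was 1.62 to 2.61 in aOX40 and 1.32 to 6.27 in IgG. That of Cd274 to Cd86 was 25.3 to 41.7 in aOX40 and 39.2 to 168 in IgG, with overlap. Lgals9 over Cd274 also overlapped, at 0.141 to 0.218 in aOX40 and 0.138 to 0.221 in IgG.

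**Figure D3:**
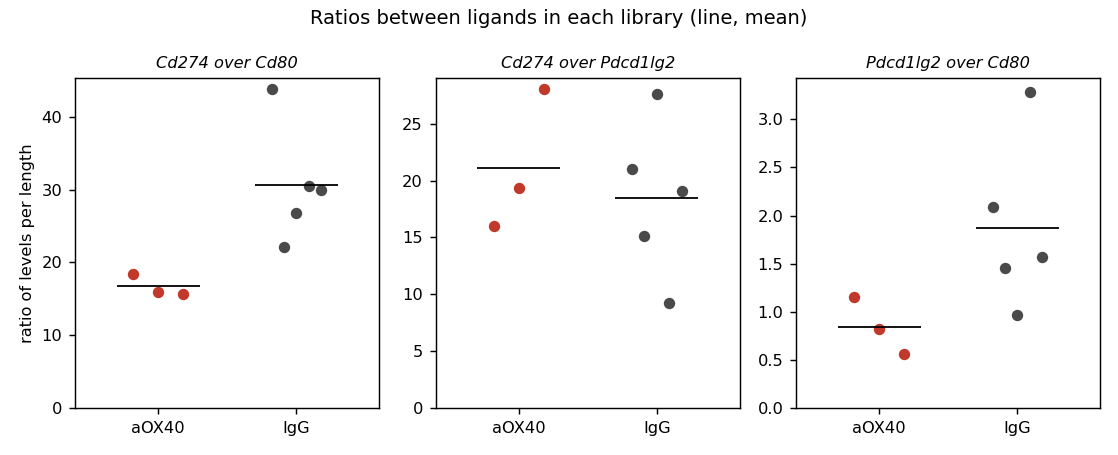
Ratios of levels per length between pairs of ligand genes in each library, with a line at each group's mean (linear axes from 0). The ratio of Cd274 to Cd80 is 15.6 to 18.5 in aOX40 and 22.0 to 43.9 in IgG, while the ratio of Cd274 to Pdcd1lg2 overlaps between the groups.

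Within IgG, the ligands did not all vary together from library to library. Cd274 and Lgals9 deviated in the same direction in every IgG library. Both were above their group means in replicates 2 (0.59 and 0.27) and 4 (0.11 and 0.47), and below them in replicates 3, 5 and 6. In aOX40 replicates 1 to 3, however, these genes deviated in opposite directions. Cd274 was at -0.02, -0.12 and 0.14 there, and Lgals9 at 0.2, 0.07 and -0.27. Other pairs parted in some IgG libraries, and no correlation between ligands was computed. Replicate 2 was 0.59 above its group mean of log2 CPM for Cd274 and 0.27 below it for Cd86. Replicate 5 was 0.42 above the mean for Pdcd1lg2 and 0.48 below it for Cd274. Replicate 4 was 0.47 above for Lgals9, 0.57 below for Pdcd1lg2 and 1.17 below for Cd86. The 3 genes that fell thus differed in which IgG library was highest: replicate 2 for Cd274, replicate 5 for Pdcd1lg2 and replicate 4 for Lgals9.

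The promoters of the 3 genes that fell are shown because interferon and STAT motifs lie in some of them. Each sequence runs from 250 bases before to 50 bases after 1 annotated RefSeq transcript start (GRCm38.p6), in the direction of the gene, and capitals mark motif matches. RefSeq models of Cd274 and Cd80 also begin further upstream, at 29362107 on chromosome 19 and 38457430 on chromosome 16, and the sequence at those starts was not searched.
Cd274, chr19:29367188-29367487, plus strand: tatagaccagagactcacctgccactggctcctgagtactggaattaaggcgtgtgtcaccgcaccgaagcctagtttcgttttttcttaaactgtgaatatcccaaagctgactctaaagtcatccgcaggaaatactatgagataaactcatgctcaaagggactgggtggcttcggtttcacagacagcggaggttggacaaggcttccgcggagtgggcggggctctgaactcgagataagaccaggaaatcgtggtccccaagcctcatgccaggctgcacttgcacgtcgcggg
Pdcd1lg2, chr19:29410669-29410968, plus strand: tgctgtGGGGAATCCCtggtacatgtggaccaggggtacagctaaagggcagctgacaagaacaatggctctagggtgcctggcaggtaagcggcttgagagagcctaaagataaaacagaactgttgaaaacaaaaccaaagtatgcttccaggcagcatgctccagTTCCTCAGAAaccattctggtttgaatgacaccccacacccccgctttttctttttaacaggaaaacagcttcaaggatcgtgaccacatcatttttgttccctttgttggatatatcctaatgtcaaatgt
Lgals9, chr11:78984875-78985174, minus strand: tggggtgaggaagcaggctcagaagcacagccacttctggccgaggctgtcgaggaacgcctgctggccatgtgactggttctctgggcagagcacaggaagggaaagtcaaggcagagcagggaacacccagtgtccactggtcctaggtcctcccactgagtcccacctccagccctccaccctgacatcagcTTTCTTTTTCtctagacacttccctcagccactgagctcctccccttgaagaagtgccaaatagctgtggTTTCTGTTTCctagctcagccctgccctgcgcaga

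Both strands were searched for 5 motifs. Lgals9 held the interferon-stimulated response element, read here as GAAA on both sides of any 2 bases, at 2 places on the strand opposite to the gene, at -55 to -46 and at 16 to 25 from the start; 3.44% of the 32851 promoters in the RefSeq table hold it. Pdcd1lg2 held the STAT6 motif, TTC and GAA around any 4 bases, at -82 to -73, which 6.95% of promoters hold, and the NF-kB motif at -244 to -235, which 8.46% hold. Cd80 held the AP-1 motif TGANTCA at -42 to -36, as do 7.81% of promoters. The gamma-activated site TTCNNNGAA, which 8.30% of promoters hold, was in none of the promoters of Cd274, Pdcd1lg2, Lgals9 and Cd80. For Cd274 none of the 5 motifs lay in this window, which says only that these letters are not there. The 4 promoters were those matched by symbol; Cd86 was not matched.

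Genes near Cd274 were described because Cd274 and Pdcd1lg2 share a locus. Leaving out both ligands, 15 genes within 500000 bases of Cd274 were tested, 12 of them had a log2 fold change below 0, and 0 were called (edgeR). Among all tested genes, 47.8% were below 0 and 5.65% were called by edgeR. With Pdcd1lg2 counted, 5 of 16 neighbours had an unadjusted p below 0.05, 3 were called by DESeq2 and 2 by limma voom. In the whole table, 3287 of 13278 genes had an unadjusted p below 0.05 in edgeR. DESeq2 called 596 higher and 1033 lower of 13245 genes, and limma voom 335 higher and 389 lower of 13278. The 15 had a median log2 fold change of -0.80, but most stood at low levels with wide errors. Of the 6 with a mean of at least 10 CPM, Plgrkt, a plasminogen receptor gene that starts 65 bases from Cd274 on the other strand, had the largest change. It stood at 243, 121 and 124 CPM in aOX40, against 523, 365, 289, 314 and 289 CPM in IgG. The groups did not overlap, but the edgeR log2 fold change was -1.13 (SE 0.30), with an adjusted p = 0.0534 that did not pass. The RefSeq model of Cd274 reaches over Plgrkt, so reads at their shared edge may not be told apart. Ric1 changed by -1.02 on the log2 scale (SE 0.32, adjusted p = 0.0875), and Jak2, the kinase gene of the interferon-gamma receptor, by -0.33 (SE 0.22, adjusted p = 0.375; edgeR for both). Plgrkt, Ric1 and Jak2 were singled out here after their values were seen.

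**Figure D4:**
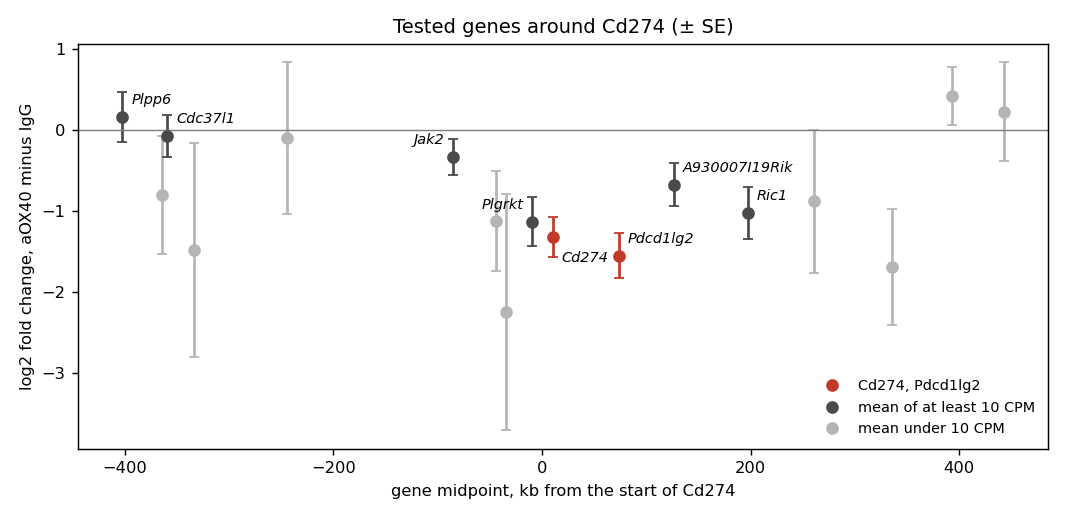
Log2 fold change (aOX40 minus IgG, ± SE) of each tested gene within 500000 bases of Cd274, by the distance of its midpoint from the start of Cd274 in kb. Cd274 and Pdcd1lg2 lie at -1.32 and -1.55, and genes of a mean under 10 CPM (light grey) carry wide errors.

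Around the other members, 1 of 12 tested neighbours of Cd80 was called and 1 of 15 of Cd86. For Lgals9, 0 of 13 were called by edgeR (3 at an unadjusted p below 0.05, 0 by DESeq2 and 0 by limma voom). These counts stand beside 5.65% of all tested genes called by edgeR, and 3287 of 13278 at an unadjusted p below 0.05. Cox17, a copper chaperone gene near Cd80, fell to 124 ± 44.9 CPM in aOX40, against 316 ± 47.4 CPM in IgG (edgeR log2 fold change -1.35, SE 0.26, adjusted p = 0.0191). Iqcb1, a cilium gene near Cd86, rose between low levels, at 1.68 ± 0.537 CPM in aOX40, against 0.0309 ± 0.0690 CPM in IgG (adjusted p = 0.0336, edgeR).

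Other ligands of the B7 and checkpoint families moved in both directions. Of a list of 20, 15 were in the table and 12 were tested; 2 rose, 1 fell and 9 were not called, with a median log2 fold change of 0.13. Tnfsf9, the gene of the 4-1BB ligand, which costimulates T cells, rose to 14.2, 9.65 and 21.5 CPM in aOX40, against 2.89, 4.30, 2.38, 3.56 and 5.38 CPM in IgG. Its log2 fold change was 2.02 (SE 0.38, adjusted p = 0.0191, edgeR), the largest of this list. Tnfsf9 was called in 15 of 18 alternative analyses. In edgeR its call was lost without aOX40 replicate 2 (adjusted p = 0.0558), without aOX40 replicate 3 (adjusted p = 0.0772) and with the replicate number as a block (adjusted p = 0.238). Icosl, whose product binds the costimulatory receptor ICOS, was at 35.2, 53.8 and 34.8 CPM in aOX40, against 22.9, 19.3, 25.4, 14.4 and 15.8 CPM in IgG. The groups did not overlap for Icosl (log2 fold change 1.08, SE 0.27, adjusted p = 0.0416, edgeR), but it was called in only 8 of 18 alternative analyses. H2-T23, which encodes the class I molecule Qa-1 that binds the inhibitory receptor NKG2A, fell to 478 ± 30.9 CPM in aOX40, against 821 ± 101 CPM in IgG (-0.78, SE 0.18, adjusted p = 0.0350, edgeR). H2-T23 was called in 10 of 18 alternative analyses, and its calls were lost without each of the 3 aOX40 libraries in turn, without IgG replicate 3, 4 or 6, with the replicate number as a block and with total counts as the only scaling. Its log2 fold change ran from -0.85 to -0.47 over the 18, with -0.47 under total counts only (adjusted p = 0.0969). The most abundant ligands of the list that did not pass were Lgals3, the galectin-3 gene, with a log2 fold change of -0.31 (SE 0.26), Fgl2 with 0.11 (SE 0.35) and Cd47, the ligand of SIRP-alpha, with 0.15 (SE 0.27). Also not called, Vsir (0.57, adjusted p = 0.0874, edgeR) and Ceacam1 (0.97, adjusted p = 0.0559, edgeR) were higher in aOX40 without overlap. Pvr was lower without overlap (-1.2, adjusted p = 0.150, edgeR). Of all tested genes, 8.22% did not overlap in the higher direction and 7.75% in the lower. Vsir, Ceacam1 and Pvr were named after their values were seen.

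**Figure D5:**
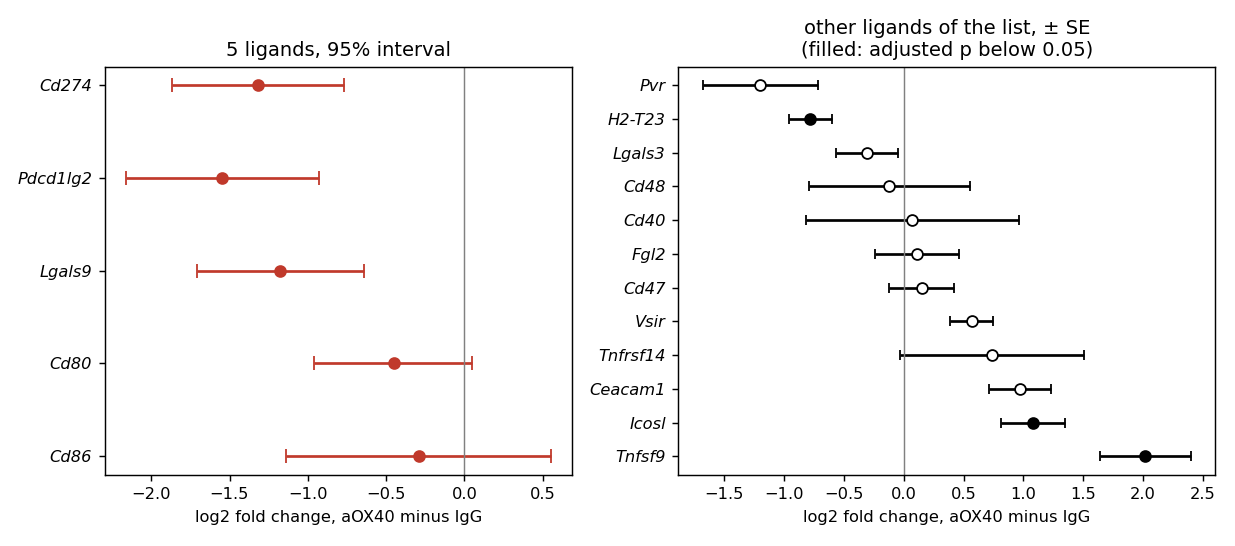
Log2 fold changes (aOX40 minus IgG) of the 5 ligand genes with 95% intervals on the left, and of the 12 tested genes of the list of other ligands with SE on the right, where filled points had an adjusted p below 0.05. Tnfsf9 and Icosl are filled above 0 and H2-T23 below 0, while the intervals of Cd80 and Cd86 include 0.

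The receptors of these ligands were largely at low levels or outside the table. Of 16 listed, 7 were in the table and 6 were tested, and 0 were called by edgeR, 0 by DESeq2 and 0 by limma voom, with 0 at an unadjusted p below 0.05. Cd28, the T cell surface receptor of CD80 and CD86, stood at 1.92 ± 0.562 CPM in aOX40, against 4.93 ± 3.53 CPM in IgG. Havcr2, the TIM-3 gene, stood at 12.5 ± 5.76 CPM in aOX40, against 8.07 ± 3.23 CPM in IgG. Pdcd1, Ctla4 and Rgmb were not among the genes in the table, so no level can be given for them. The most abundant of the list were Cd44 and Ptprc, general leukocyte surface genes, with log2 fold changes of -0.13 (SE 0.19) and -0.13 (SE 0.21).

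Among galectins, Lgals9 was joined by 1 other gene. Of 10 further listed genes 5 were tested, 0 rose and 1 fell, with a median log2 fold change of -0.31. Lgals8, the galectin-8 gene, stood at 55.8 ± 1.30 CPM in aOX40, against 106 ± 22.9 CPM in IgG, without overlap (-0.92, SE 0.23, adjusted p = 0.0419, edgeR). It was called in 7 of 18 alternative analyses, and scaling by total counts alone gave -0.61 (adjusted p = 0.107).

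Of the genes that regulate PD-L1, inducers and stabilisers as well as genes that restrain or degrade it, 24 of 26 listed were tested; 0 rose, 1 fell and 23 were not called. Their median of -0.08 mixes members of opposite roles. Socs1, the feedback inhibitor of JAK kinases, was the one that fell, to 283, 207 and 270 CPM in aOX40, against 770, 905, 1649, 800 and 1078 CPM in IgG (edgeR log2 fold change -2.04, SE 0.29, adjusted p = 0.00934). Irf1, an interferon-induced factor known to drive Cd274, stood at 503, 564 and 915 CPM in aOX40, against 1159, 1305, 2285, 1009 and 1801 CPM in IgG. Its groups did not overlap, and the edgeR adjusted p of 0.0512 (-1.19, SE 0.31) missed the threshold. Socs3, another feedback inhibitor of cytokine receptors, did not pass (-0.86, SE 0.42).

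Of the genes around PD-L2 and the IL-4 receptor, 11 of 15 listed were tested; 0 rose and 1 fell, with a median of 0.20. The one that fell was Cish, a STAT-induced feedback inhibitor, at 66.2 ± 12.2 CPM in aOX40, against 169 ± 32.9 CPM in IgG (-1.35, SE 0.23, adjusted p = 0.0150, edgeR). The receptor genes Il4ra and Il13ra1 had log2 fold changes of -0.29 (SE 0.32) and 0.20 (SE 0.26), and the chitinase-like gene Chil3 one of 0.52 (SE 0.45).

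Of 14 genes of class II presentation and costimulation, 11 were tested; 0 rose and 1 fell, with a median of 0.36. Il15, a cytokine that sustains natural killer cells and memory T cells, stood at 169, 95.9 and 122 CPM in aOX40, against 532, 350, 553, 440 and 454 CPM in IgG. Its highest aOX40 library was below its lowest IgG library by a wide margin (-1.85, SE 0.25, adjusted p = 0.00815, edgeR), and it was called in 16 of 18 alternative analyses. The adhesion gene Icam1 (1.01, SE 0.51), the invariant chain gene Cd74 (0.36, SE 0.21) and the class II gene H2-Eb1 (0.19, SE 0.37) did not pass.

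Likeness of profile was measured as the root mean square difference in log2 CPM over the 8 libraries, after centring each gene on its own mean, among 4484 named genes of at least 10 CPM. The nearest to Cd274 were Ankrd33b at 0.08, Rsrc2 at 0.09 and Btg3 at 0.17, where the median gene stood at 0.79. Ankrd33b averaged 473 ± 71.6 CPM in aOX40 and 1217 ± 311 CPM in IgG. Lgals9 was at 0.29 from Cd274, 84th in that order, and Pdcd1lg2 was at 0.48. The nearest to Pdcd1lg2 were Plekhm2 at 0.16, Cpsf7 at 0.21 and Plekhg3 at 0.21, and the nearest to Lgals9 were Fabp5 at 0.15, Rmnd5b at 0.16 and Kpna4 at 0.19. The nearest to Cd80 were Rnf114 at 0.11, Trim12a at 0.13 and Dnttip1 at 0.13, and none of these passed the test. Those of Cd86 were farther off, with Rps6ka2 at 0.28, Msl2 at 0.31 and Gpank1 at 0.33. These distances describe the 8 libraries alone and include the difference between the groups. A gene near a member thus has a change close to that member's by construction, which also bears on whether it passes the test.

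Macrophages and dendritic cells also carry these ligands, so their markers were read beside them. The 10 macrophage and monocyte markers in the table, of 12 listed, summed to 89.5 to 152 CPM in aOX40 and 44.2 to 70.5 CPM in IgG. The sum moved opposite to the ligands that fell, but its genes differed. Adgre1, the F4/80 gene, rose (21.6 ± 6.37 CPM in aOX40, against 6.12 ± 2.62 CPM in IgG, adjusted p = 0.0248, edgeR). Csf1r stood at 51.2 ± 21.2 CPM in aOX40, against 17.5 ± 8.26 CPM in IgG, without overlap, and did not pass (adjusted p = 0.0546, edgeR). Apoe hardly differed, at 36.3 ± 12.2 CPM in aOX40, against 35.8 ± 5.65 CPM in IgG. The others each averaged at most 2.93 CPM in aOX40 and 0.952 CPM in IgG. Among these, C1qc alone had the lower mean in aOX40. The 7 dendritic cell markers in the table, of 10 listed, summed to 11.3 to 20.6 CPM in aOX40 and 23.3 to 43.1 CPM in IgG, and moved in the same direction as Cd274. Most of that sum was Itgax, the CD11c gene, at 15.4 ± 4.07 CPM in aOX40, against 30.9 ± 7.83 CPM in IgG. The other 6 each averaged at most 0.361 CPM in aOX40 and 1.22 CPM in IgG: Xcr1, Clec9a and Irf8 had the lower mean in aOX40, and Flt3, Zbtb46 and Batf3 the higher. None of these 7 passed the test, and 4 of them were below the filter on low counts. None of the markers in the table was at 0 in every library. The 6 mature dendritic cell markers in the table, of 8 listed, summed to 49.6 to 90.1 CPM in aOX40 and 36.0 to 67.1 CPM in IgG, nearly all of it Relb, which many leukocytes express. T cell markers (7 of 10 in the table) summed to 1.40 to 17.1 CPM in aOX40 and 1.35 to 3.70 CPM in IgG. B cell markers (1 of 8) were at most 0.861 CPM in aOX40 and 0.425 CPM in IgG, and natural killer markers (1 of 7) at most 0.323 CPM in aOX40 and 0 in IgG. Melanoma markers (8 of 8) summed to 4.59 to 9.07 CPM in aOX40 and 5.77 to 15.9 CPM in IgG. Fibroblast and pericyte markers (4 of 8) summed to 1.22 to 4.04 CPM in aOX40 and 3.45 to 32.4 CPM in IgG, with overlap. Among them Col1a1 was called lower, in the direction of the ligands that fell (log2 fold change -3.09, SE 0.75, adjusted p = 0.0414, edgeR). Col1a1 stood at 1.22 to 2.21 CPM in aOX40 and 3.42 to 32.4 CPM in IgG, without overlap. Col3a1, Dcn and Lum were below the filter on low counts. Endothelial markers (3 of 6) summed to 5.93 to 12.4 CPM in aOX40 and 8.65 to 30.4 CPM in IgG. Eosinophil and mast cell markers (4 of 8) summed to 11.8 to 18.2 CPM in aOX40 and 12.0 to 23.9 CPM in IgG. The part of these cells, of the neutrophil markers that rose, of depth and of mitochondrial messenger RNA in the changes of the ligands was not tested.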

How the data were processed

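RNA-seq libraries of neutrophils (3 aOX40, 5 IgG) were analysed from 1 deposited table of estimated counts per gene symbol without scaling. The submitters' processing notes name mm10, STAR 2.6.0, featureCounts 1.5.1 and Subread, and no settings. Groups and replicate numbers came from sample titles. Of the deposited values, 63.4% were whole within 0.01, and all were rounded. Genes were filtered with filterByExpr, scaled with TMM factors and compared with edgeR 4.0.16 (limma 3.58.1, R 4.3.3), by the quasi-likelihood F test with the bias-adjusted method of that version and group as the only term. P-values were adjusted by Benjamini-Hochberg over the 13278 genes tested. Standard errors came from the F statistic, and levels are CPM with TMM factors. Alternatives were RLE, upper quartile and total count scaling, no filter, a mean of at least 1 CPM, DESeq2 1.42.0, limma voom, unrounded counts, each library left out, and the replicate number as a block; the original quasi-likelihood method was added after the data were seen. The members and lists were chosen with earlier results of these data known.

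The genes named were the 5 members, up to 6 called genes and the 3 most abundant uncalled genes of each list, the direct receptors Pdcd1, Ctla4, Cd28, Havcr2 and Rgmb, called neighbours within 500000 bases, and the 3 nearest profiles of each member; exceptions are stated, and 1 gene that the rule names is not reported here. Positions and exon lengths came from GENCODE M21 (GRCm38), with 17639 of 18187 symbols placed, and promoters from RefSeq (GRCm38.p6). No member had another gene matching at least 95% over 50% of its longest transcript (BLAST+ 2.17.0). In data simulated for aOX40 against IgG (12415 genes, changed genes of at least 10 CPM), 24% of genes changed 2-fold, 84% changed 4-fold and 98% changed 8-fold were recovered, with 14 unchanged genes called.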

Additional observations from a re-analysis of the deposited data

How the results depend on the processing

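The log2 fold changes of all 5 ligands stayed below 0 in each of 18 alternative analyses, from -1.49 to -1.01 for Cd274, -1.88 to -1.26 for Pdcd1lg2, -1.31 to -0.86 for Lgals9, -0.57 to -0.15 for Cd80 and -0.61 to -0.03 for Cd86. Cd274, Pdcd1lg2 and Lgals9 were called in 15 of 18, including all scalings, DESeq2, limma voom and the original quasi-likelihood method of edgeR. They were not called without aOX40 replicate 2, without aOX40 replicate 3, or with the replicate block. Cd80 and Cd86 were called in none. With 1 library left out, the log2 fold change lay between -1.43 and -1.14 for Cd274, -1.73 and -1.40 for Pdcd1lg2, and -1.27 and -1.04 for Lgals9. Over all genes, leaving out 1 library gave 0 to 263 higher and 0 to 326 lower genes, against 351 and 399. The libraries whose absence moved a count by over 1.5 times were aOX40 replicate 2 (0 and 0), aOX40 replicate 3 (26 and 33), and IgG replicates 2, 3 and 6, without which 221, 222 and 206 genes were higher. Calls numbered 874 higher and 246 lower with total counts only, 194 and 258 with no filter, 596 and 1033 with DESeq2, and 109 and 211 with the original method. The causes of these shifts were not tested. Only numbers 2 and 3 occur in both groups, and same-numbered libraries deviated together by a correlation of 0.022 and 0.047 across genes. The highest correlation with a differently numbered IgG library was lower, at 0.013 and 0.031. All of these were small, and the numbers were not taken as pairs. The replicate block compares the groups only within numbers 2 and 3, so little is left to measure the spread. With that block the values were -1.49 for Cd274, -1.88 for Pdcd1lg2 and -1.31 for Lgals9 (adjusted p = 0.238 for each, edgeR). In that fit 0 genes were called in either direction (2594 at an unadjusted p below 0.05). The members had at least 1227 counts in every library, so the spread between libraries, not depth, limits these comparisons.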
